A study of Mus musculus with 6 samples.

Results

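The genes described here encode the machinery that carries cargo between the endoplasmic reticulum (ER) and the Golgi apparatus. They are 54 genes of the COPII and COPI vesicle coats, the ARF GTPases with their regulators, the lipid phosphatase Sac1, the golgins, the ER-Golgi SNAREs and the cargo and retrieval receptors. They were chosen by function, with earlier results of these data known, and matched exactly to the gene symbols of the deposited count table. Of its 10520 genes, 54 were members. Lamin A/C was knocked down in E0771 cells, a murine breast adenocarcinoma line of C57BL/6 origin, by stable lentiviral expression of an shRNA against lamin A/C (shLmna). The control cells (shControl) carried the pLKO.5-puro vector with no shRNA insert, and both groups were selected with puromycin at 3 µg/ml. Each group had 3 libraries, prepared by bulk MARS-seq, a 3′-end method in which unique molecular identifiers (UMIs) allow molecules, not amplified copies, to be counted. All knockdown libraries came from cells selected after transduction with 1 shRNA construct, named shRNA4 in the titles, and the labels do not say whether replicates were separate cultures, so p-values measure the spread between these libraries only. The shControl libraries occupied plate positions 13 to 15 and the shLmna libraries positions 16 to 18, and the effects of plate position and group cannot be told apart.

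COPII coats form on the ER when the GTPase Sar1, loaded by its exchange factor Sec12 (Preb), recruits the Sec23/Sec24 cargo adaptor layer and then the Sec13/Sec31 outer cage, and the vesicles carry newly made secretory and membrane proteins toward the Golgi. COPI coats form on Golgi membranes when ARF GTPases recruit the coatomer complex, and return escaped ER residents and Golgi enzymes. Golgins and p115 (Uso1) capture arriving vesicles, SNAREs fuse them, and KDEL receptors retrieve soluble ER proteins. Collagens, integrins and other surface and matrix proteins of a carcinoma cell pass through this route.

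The libraries held between 1846208 and 3242051 UMIs. Lmna, the targeted gene (reverse strand of chromosome 3 of GRCm38, 88480147 to 88509956), had 1764 to 2794 UMIs in the shControl libraries and 713 to 1035 in the shLmna libraries, a log2 fold change of -1.20 (standard error 0.13, adjusted p = 3.5e-05, edgeR's quasi-likelihood test), and all shLmna libraries were below all shControl libraries. Of 10 genes listed as epithelial and mammary markers, with Vim among them, 6 had a row in the table. Krt19, Krt5, Cdh1 and Esr1 had none. Of the keratins, Krt8 had 516 to 814 UMIs, but Krt18 (7 to 20), Krt14 (5 to 31) and Krt7 (4 to 10) were low, as was Epcam, which marks epithelial cells (8 to 46), while Vim, a mesenchymal marker, was at 10546 to 17461. Krt14 (log2 fold change -1.18, adjusted p = 0.077) and Epcam (-0.90, adjusted p = 0.091, edgeR) did not pass, although all shLmna libraries were below all shControl libraries. Of 7 melanocyte-lineage (melanoma) markers 6 had a row, and they were unevenly spread: Pmel, Mlana, Tyrp1, Dct, Mitf and Sox10 together had 1421 UMIs in shControl replicate 3 and 1647 in shLmna replicate 2, or 0.0749% and 0.0629% of these libraries, against 2 to 15 UMIs in each of the other 4. Sox10 was at 0 in all 4 of those. The 2 libraries, 1 of each group, thus stood apart from the rest, and results that rest on them are given with and without them. For Lmna the log2 fold change without both was -1.13. The leukocyte marker Cd68 had 10 to 34 UMIs and the endothelial marker Pecam1 2 to 7.

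Most of the transport machinery showed no change that passed the test. Counts were scaled by TMM factors and tested over the 8969 genes kept by a filter on low counts, and a gene passed with an adjusted p below 0.05. Of the 54 members, 53 were tested, and 5 passed: Sacm1l, Arf6 and Arf3 were higher in shLmna, and Sar1a and Kdelr3 were lower. These are 9.43% of the tested members, against 13.7% of all tested genes, of which 7.96% were higher and 5.78% lower. The study's criteria for differential expression were a mean normalized count above 5, absolute log2 fold change above 1 and adjusted p below 0.05. Applied here to edgeR's test, they called 2 members, both higher (Sacm1l and Arf6). Of all tested genes 5.71% were called, 3.97% higher and 1.74% lower. With DESeq2, the test the study used, 1 member was called, Sacm1l. At an unadjusted p below 0.05 there were 13 members, or 24.5%, against 28.4% of all tested genes. In bulk RNA, fewer cells of a kind and less RNA per cell cannot be told apart.

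Members were well covered, with a median normalized count of 194.6 per library against 88.9 over all tested genes. Their median log2 fold change was -0.011, beside 0.0033 over all tested genes, with 26 positive and 27 negative. Of the 48 members that did not pass, 45 (93.8%) had a 95% interval of the fold change that lay wholly within a 2-fold change either way, against 79.6% of all genes that did not pass. A 1.5-fold change either way lay outside the interval for 18 of the 48. The 3 members whose interval reached past a 2-fold change were Sec24a, Copb1 and Gosr2. Libraries of the groups did not overlap, with shLmna above, for 7 tested members (13.2%, against 16.8% of all tested genes), and with shLmna below for 10 (18.9%, against 15.7%).

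**Figure D1:**
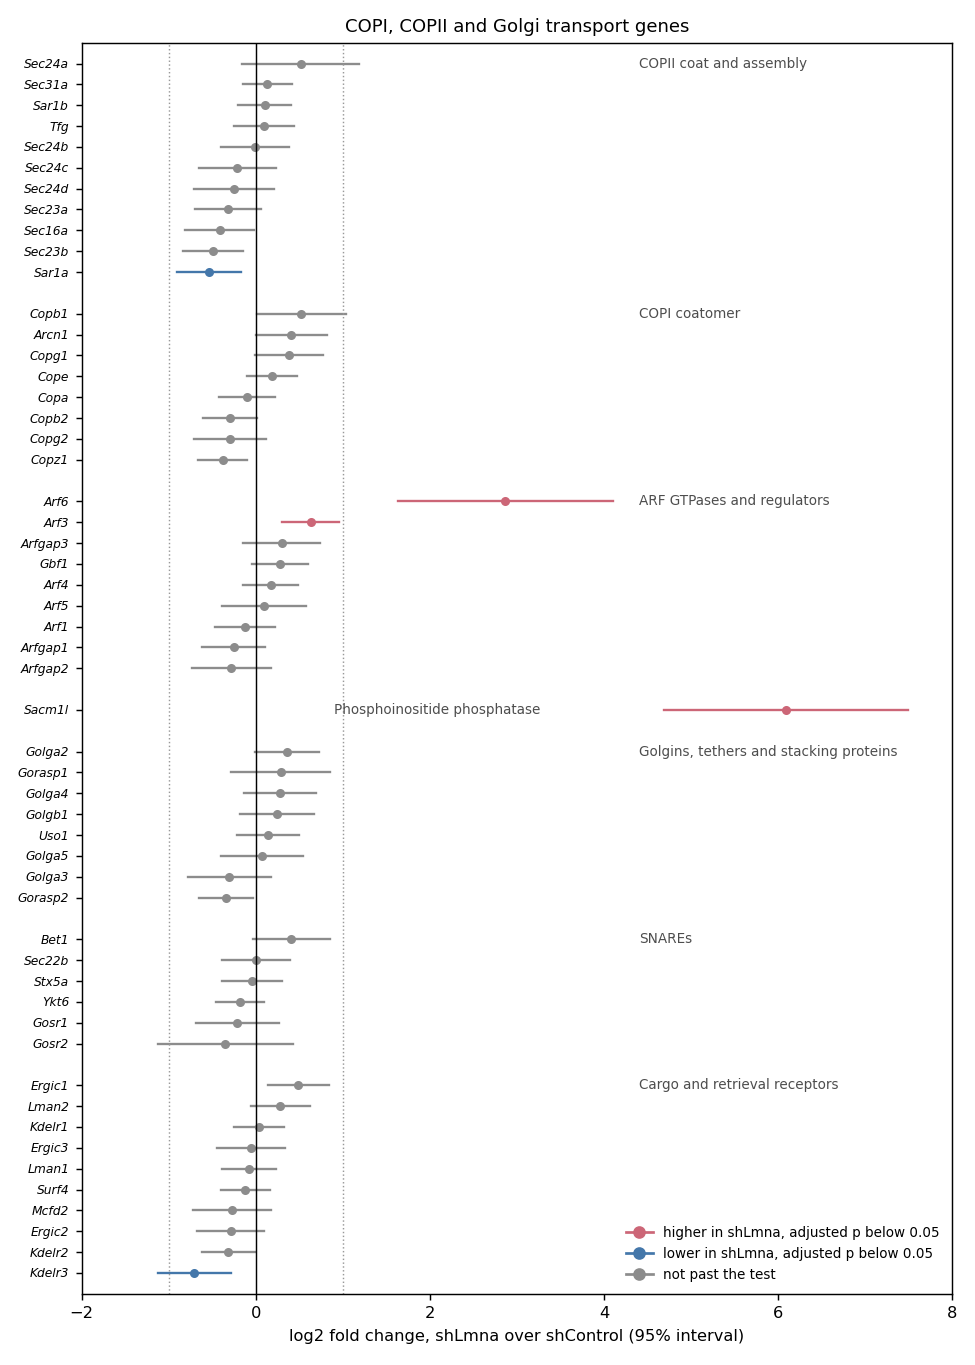
Log2 fold change of shLmna over shControl (points) with its 95% interval (lines) for the 53 tested COPI, COPII and Golgi transport genes, grouped by role, with dotted lines at a 2-fold change. Sacm1l, Arf6 and Arf3 lie to the right and Sar1a and Kdelr3 to the left, and 45 of the 48 grey intervals stay between the dotted lines; the fitted value of Sacm1l rests on 2 UMIs in shControl and is not a measured fold.

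The summed level of each of 6 groups of genes (all but Sacm1l) differed by less than 10% between the groups of libraries. Summed over the 54 members, normalized counts ran from 15036 to 16001 in shControl and from 15180 to 15664 in shLmna, and the means differed by -1.80%. The COPII genes summed to 3202, 3252 and 2896 in shControl replicates 1, 2 and 3 and to 2800, 2916 and 2791 in shLmna, a mean difference of -9.02%. The COPII sums overlapped, with the libraries holding melanoma transcripts at 2896 (shControl) and 2916 (shLmna). No test of these sums was made. For the COPI genes the difference of the means was -1.12%, for the ARF GTPases and their regulators 5.98%, for the golgins -3.89%, for the SNAREs -6.17% and for the cargo and retrieval receptors -1.73%. Of these, the SNARE sums did not overlap, at 1185 to 1232 in shControl and 1113 to 1166 in shLmna. Their means were 1212 and 1138, and the means of Ykt6 alone were 700 and 618. Ykt6 did not pass (adjusted p = 0.39, edgeR), and how often sums of other genes separate was not tested.

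**Figure D2:**
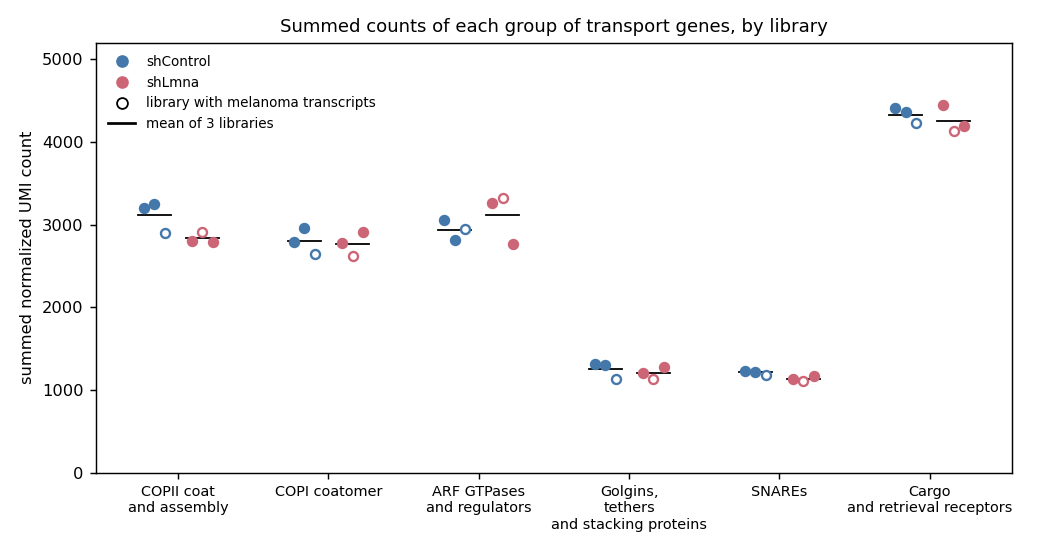
Summed normalized UMI count (vertical axis) of the genes of 6 roles in each of the 3 shControl and 3 shLmna libraries (points, with the mean as a line), with the libraries holding melanoma transcripts drawn open. The difference of the group means ranges from -9.02% for the COPII genes to 5.98% for the ARF genes.

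Sacm1l showed the largest change of any member. It encodes Sac1, the ER and Golgi phosphatase that removes the phosphate of phosphatidylinositol 4-phosphate (PI4P), the lipid that marks Golgi membranes. The gene lies on the forward strand of chromosome 9 of GRCm38, 123529759 to 123592600. In shControl, 2 UMIs of Sacm1l were counted in replicate 3 and 0 in the other replicates, while shLmna replicates 1, 2 and 3 held 44, 44 and 62. Every shLmna library thus lay far above every shControl library, which were at or near 0. Normalized counts were 0.879 ± 1.52 (SD, n = 3) and 54.3 ± 23.9 (SD, n = 3), at least 17.7-fold higher in shLmna when 3 UMIs per library are taken as the floor (adjusted p = 3.1e-05, edgeR's quasi-likelihood test, rank 41 of 8969 by p). The 2 UMIs in shControl were in the library with melanoma transcripts. Without both such libraries, Sacm1l had no UMI in shControl and a mean normalized count of 61.4 in shLmna (adjusted p = 4.2e-07, edgeR). The 1000 bases counted at its 3′ end overlap, over their whole length, an exon of Slc6a20b on the opposite strand, and whether the counting used the strand is not given in the sources used here, so reads of both genes cannot be told apart. The deposited counts hold no row for Slc6a20b, so its own level could not be compared.

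Of the 5 ARF GTPases among the members, Arf6 and Arf3 were higher in shLmna, and Arf1, Arf4 and Arf5 did not pass. Arf2, which is not a member, was lower and is given with the further ER-Golgi genes. ARF GTPases are small switches that recruit coats and lipid-modifying enzymes to membranes, Arf1, Arf3, Arf4 and Arf5 mainly at the Golgi and Arf6 mainly at the plasma membrane and endosomes, where it directs membrane recycling and actin remodelling. Of the 9 genes of this group, 2 rose and none fell in edgeR's test, with 7 that did not pass. The share that passed was 22.2%, on these few genes, against 13.7% of all tested genes in either direction.

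Arf6 (chromosome 12, 69372150 to 69373783) had 1, 3 and 11 UMIs in shControl and 23, 59 and 28 in shLmna. All 3 shLmna libraries were above all 3 shControl libraries, and within each group the library with melanoma transcripts was the highest. Normalized counts averaged 5.93 ± 7.45 and 37.4 ± 16.2 (SD, n = 3 each), a log2 fold change of 2.87 (standard error 0.58, adjusted p = 0.0046, edgeR). Without both libraries with melanoma transcripts, the means were 1.65 and 29.2 (adjusted p = 7.6e-05, edgeR), and in those 2 libraries alone the ratio of shLmna to shControl was 3.71. At these low counts the call was lost with DESeq2 (adjusted p = 0.061) and without shControl replicate 2 (adjusted p = 0.062, edgeR).

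Arf3, a close paralog of Arf1 (reverse strand of chromosome 15, 98736634 to 98763214), had 279, 358 and 155 UMIs in shControl and 392, 444 and 306 in shLmna. Its normalized count rose from 251.4 ± 40.9 to 391 ± 22.9 (SD, n = 3 each), 1.55-fold (log2 fold change 0.63, standard error 0.15, adjusted p = 0.014, edgeR), and the groups did not overlap. The shControl library with melanoma transcripts was the lowest of all 6. Without both libraries with melanoma transcripts the log2 fold change was 0.48 with an adjusted p of 0.065, and without shLmna replicate 3 the adjusted p was 0.062 (edgeR).

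Arf1, Arf4 and Arf5 overlapped between the groups. Arf1, the most abundant of them, had a normalized count of 1229 ± 172 (SD, n = 3) in shControl and 1127 ± 201 in shLmna, and its log2 fold change of -0.12 had a 95% interval from -0.46 to 0.22. That of Arf4 was 0.17 (-0.14 to 0.48) and that of Arf5 0.095 (-0.39 to 0.58). Arf5 was highest in shLmna replicate 2, at 460 UMIs against 264 and 162 in the other shLmna libraries. Gbf1, the Golgi exchange factor that loads ARFs with GTP, had a log2 fold change of 0.28, and Arfgap1, Arfgap2 and Arfgap3, which switch ARFs off during COPI budding, had values of -0.25, -0.28 and 0.30. The counted end of Arfgap2 overlaps an exon of 1110051M20Rik on the opposite strand.

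**Figure D3:**
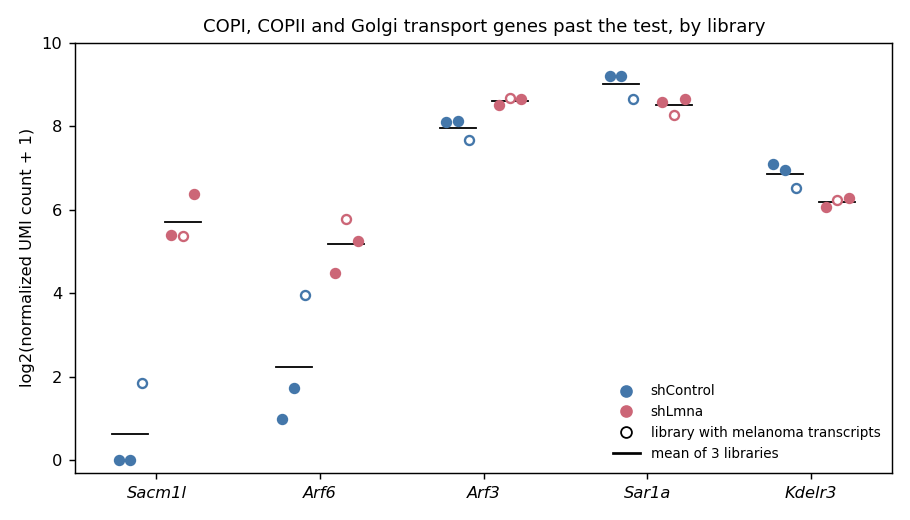
Normalized UMI counts on a log2(count + 1) scale (vertical axis) of the 5 transport genes with an adjusted p below 0.05, in each shControl and shLmna library (points, with the mean as a line), with the libraries holding melanoma transcripts drawn open. Sacm1l and Arf6 are low in all shControl libraries and higher in all shLmna libraries, while the means of Arf3, Sar1a and Kdelr3 differ by less than 2-fold.

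Within the COPII machinery 1 of the 11 tested genes fell (9.09%, against 13.7% of all tested genes passing in either direction) and none rose. Sar1a (forward strand of chromosome 10, 61680299 to 61693297) encodes 1 of the paralogs of the GTPase that starts COPII assembly. It had 600, 760 and 305 UMIs in shControl and 412, 337 and 303 in shLmna. Normalized counts averaged 526 ± 107 and 364 ± 49.5 (SD, n = 3 each), a log2 fold change of -0.54 (standard error 0.17, adjusted p = 0.049, edgeR). The groups were separated only narrowly, with the lowest shControl library at 402 and the highest shLmna library at 400. That shControl library holds melanoma transcripts, and without both such libraries the log2 fold change was -0.58 (adjusted p = 0.022, edgeR). The call was lost in 11 of 18 alternative analyses, including the omission of any 1 library other than shControl replicate 3 (adjusted p up to 0.21). Its paralog Sar1b had normalized counts of 388 ± 30.3 and 416 ± 43.7 (SD, n = 3 each), a log2 fold change of 0.10 with a 95% interval from -0.20 to 0.41.

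The inner coat genes did not pass. Sec23b, the more abundant of the Sec23 paralogs, came nearest, with 308, 419 and 263 UMIs in shControl and 242, 300 and 142 in shLmna (log2 fold change -0.49, standard error 0.16, adjusted p = 0.055, edgeR), and its groups did not overlap. Without both libraries with melanoma transcripts it passed, at -0.59 (adjusted p = 0.033, edgeR). For Sec23a the log2 fold change was -0.32. The cargo-binding Sec24 paralogs had values of 0.51 (Sec24a), -0.011 (Sec24b), -0.21 (Sec24c) and -0.25 (Sec24d), and all of them overlapped between the groups. Sec31a, of the outer cage, was at 0.13, Tfg, which organizes ER exit sites, at 0.098 and the exit-site scaffold Sec16a at -0.41 (adjusted p = 0.16, edgeR). Preb (Sec12), the exchange factor that loads Sar1, was below the filter on low counts and was not tested. It had 12, 20 and 7 UMIs in shControl and 6, 4 and 1 in shLmna, so that every shLmna library was below every shControl library.

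Some of these genes share a short sequence close to their starts. Promoters of 48 members, from 250 bases before to 50 bases after the start, were matched in RefSeq (GRCm38.p6). The letters TGACGT, the core bound by factors of the CREB, ATF6 and XBP1 families, which include regulators of secretory pathway genes, were searched on both strands and found in the promoters of 20 of the 48 members (41.7%), against 14.4% of the 6928 tested genes with a promoter and 8.37% of all 27025 genes with one. The members' promoters had a median GC content of 64.0%, against 52.7% over all promoters, and TGACGT contains a CG pair. The GC content of the promoters of tested genes alone was not computed. TGACGT was present in 7 of 12 COPII genes (Sar1a, Sec16a, Sec23a, Sec23b, Sec24a, Sec24c and Sec24d), in 4 of 7 COPI genes and in 1 of 8 cargo and retrieval receptors, Kdelr3. The pentamer CCAAT, of the NF-Y box and also the first letters of the ER stress response element, was found in 41.7% of the members and 42.9% of the tested genes, and the full element, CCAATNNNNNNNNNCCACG, in none of the members and 0.188% of the tested genes. The median log2 fold change was -0.21 over the 20 tested members with TGACGT, 13 of them negative, and 0.034 over the 27 without, 12 of them negative. The roles differed. With and without TGACGT the medians were -0.32 and 0.099 for COPII genes, -0.21 and 0.0022 for SNAREs and 0.095 and 0.17 for ARF genes. In COPI genes the order was the other way, at -0.055 with and -0.10 without. Medians over all tested genes with and without TGACGT were not computed. The motifs are matches of letters, counted after the fold changes were known, and no test was made. Of the members that passed, Sacm1l, Sar1a and Kdelr3 hold TGACGT, and their promoters are given 5′ to 3′ with TGACGT (or ACGTCA, the same letters on the other strand) and CCAAT in capitals. In Sacm1l (chr9:123529503-123529802, forward strand) TGACGT begins 88 bases before the start, between a pair of CCAAT boxes, in Sar1a (chr10:61680035-61680334, forward strand) it occurs at -99 and 27, and in Kdelr3 (chr15:79516158-79516457, forward strand) at -28. No match of these letters was found for Arf3. Arf6 was not among the members with a matched promoter and was not searched.
Sacm1l: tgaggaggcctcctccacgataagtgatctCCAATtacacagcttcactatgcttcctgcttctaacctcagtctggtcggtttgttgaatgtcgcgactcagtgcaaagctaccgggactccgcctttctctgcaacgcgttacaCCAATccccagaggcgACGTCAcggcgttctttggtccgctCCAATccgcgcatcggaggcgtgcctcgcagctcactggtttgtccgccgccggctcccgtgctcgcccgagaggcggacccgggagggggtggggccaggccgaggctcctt
Sar1a: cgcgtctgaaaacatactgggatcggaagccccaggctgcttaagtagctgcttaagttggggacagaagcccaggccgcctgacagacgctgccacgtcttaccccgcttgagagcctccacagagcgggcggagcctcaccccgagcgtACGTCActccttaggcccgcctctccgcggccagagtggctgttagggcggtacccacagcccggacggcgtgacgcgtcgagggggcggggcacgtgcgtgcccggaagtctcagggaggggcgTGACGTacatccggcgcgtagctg
Kdelr3: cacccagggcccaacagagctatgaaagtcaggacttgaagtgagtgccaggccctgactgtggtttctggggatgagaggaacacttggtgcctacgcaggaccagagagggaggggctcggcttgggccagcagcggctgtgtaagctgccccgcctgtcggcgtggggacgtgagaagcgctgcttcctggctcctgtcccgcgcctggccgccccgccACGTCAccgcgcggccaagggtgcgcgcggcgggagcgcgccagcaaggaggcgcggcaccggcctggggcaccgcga

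None of the 8 genes of coatomer, the COPI coat, passed the test, against 13.7% of all tested genes. Their log2 fold changes ran from -0.38 for Copz1 (ζ-COP) to 0.52 for Copb1 (β-COP), with 4 positive and 4 negative. Copz1 had 715, 908 and 487 UMIs in shControl and 595, 536 and 400 in shLmna, with no overlap after scaling (adjusted p = 0.072, edgeR). Copb1 had 112, 281 and 145 UMIs in shControl and 271, 201 and 238 in shLmna, and the groups overlapped through shLmna replicate 2, a library with melanoma transcripts. Without both libraries with melanoma transcripts, Copb1 was higher in shLmna (log2 fold change 0.77, adjusted p = 0.033, edgeR). With a term marking these libraries it did not pass (0.51, adjusted p = 0.098, edgeR). Without shControl replicate 1, its lowest library, the log2 fold change was 0.27 (adjusted p = 0.50, edgeR). Copa, Copb2 and Cope, the α, β′ and ε subunits, had log2 fold changes of -0.10, -0.29 and 0.18, and Arcn1 (δ-COP) was at 0.41. The γ-COP paralogs Copg1 and Copg2 were at 0.38 and -0.30. The counted end of Copg2 overlaps an exon of Mest on the opposite strand over 912 bases.

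Golgins, tethers and Golgi stacking proteins did not pass in any of 8 cases, against 13.7% of all tested genes that passed. Golga2 (GM130), the cis-Golgi golgin that binds p115, had 103, 130 and 73 UMIs in shControl and 125, 132 and 112 in shLmna, with shLmna above after scaling (log2 fold change 0.36, adjusted p = 0.18, edgeR). Uso1 (p115) was at 0.14, giantin (Golgb1) at 0.24, Golga4 at 0.28, Golga5 at 0.075 and Golga3 at -0.31. Gorasp2 (GRASP55), which joins medial Golgi cisternae, was at -0.34 (adjusted p = 0.13, edgeR) with shLmna below, and its paralog Gorasp1 (GRASP65) at 0.29, on 21 to 71 UMIs and with a counted end that lies on an exon of Wdr48. The 6 SNAREs were between -0.35 (Gosr2) and 0.41 (Bet1). None reached an unadjusted p below 0.05, a level that 28.4% of all tested genes reached in edgeR's test. Stx5a (syntaxin 5), the central SNARE of this step, was at -0.045 and its partner Sec22b at 0.0022. Gosr1 was at -0.21, and Ykt6, the most abundant of the SNAREs, at -0.18 with all shLmna libraries below the shControl libraries.

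Among the 10 cargo and retrieval receptors 1 fell (10%, against 13.7% of all tested genes passing in either direction) and none rose. KDEL receptors bind ER chaperones that have reached the Golgi and return them in COPI vesicles. Kdelr3 (forward strand of chromosome 15, 79516411 to 79527739), the least abundant of the 3, had 139, 159 and 69 UMIs in shControl and 71, 81 and 58 in shLmna. Its normalized count fell from 117 ± 23.0 to 72.2 ± 5.46 (SD, n = 3 each), 1.63-fold lower (log2 fold change -0.71, standard error 0.19, adjusted p = 0.026, edgeR). The lowest shControl library, at 90.9, holds melanoma transcripts, and the highest shLmna library was at 76.6. Without both libraries with melanoma transcripts the log2 fold change was -0.86 (adjusted p = 0.011, edgeR). The omission of any 1 library other than shControl replicate 3 took the adjusted p above 0.05, to between 0.066 and 0.12. The 100 bases downstream that are counted with Kdelr3 overlap an exon of Ddx17 on the opposite strand.

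Kdelr2 had normalized counts of 460 ± 59.6 and 370 ± 8.32 (SD, n = 3 each), with shLmna below (log2 fold change -0.32, 95% interval -0.62 to -0.012, adjusted p = 0.16, edgeR). Kdelr1, at 988 ± 93.7 and 1012 ± 50.4, differed by 0.034 on the log2 scale (95% interval -0.25 to 0.32). Ergic1, a membrane protein of the ER-Golgi intermediate compartment, had 504, 479 and 286 UMIs in shControl and 732, 530 and 435 in shLmna (log2 fold change 0.49, standard error 0.16, adjusted p = 0.063, edgeR), and the groups overlapped, with shLmna replicate 2 at a normalized count of 483 and shControl replicate 1 at 491. Without both libraries with melanoma transcripts it passed, at 0.55 (adjusted p = 0.044, edgeR). The lectin cargo receptors Lman1 (ERGIC-53) and Lman2 were at -0.074 and 0.28, Mcfd2, the partner of Lman1 in exporting coagulation factors, at -0.28, and the abundant receptor Surf4 at -0.12. Ergic2 and Ergic3 were at -0.29 and -0.057.

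Over all members, the fit without both libraries with melanoma transcripts called 8 of 54 (14.8%), against 13.2% of all genes tested in it. Of these, 4 were among the 5 named above, all but Arf3, and the others were Copb1 and Ergic1 (higher) and Sec23b and Preb (lower). A fit on all 6 libraries with a yes-or-no term marking both libraries with melanoma transcripts called 8 of 53 (15.1%), against 20.8% of all genes. It kept all 5. The amount of melanoma transcripts did not enter that term, which takes up any difference of the marked libraries from the rest. The part of the melanoma transcripts in the counts of single genes was not tested.

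Paralog use within families was compared as each gene's share of the family's UMIs, which needs no scaling between libraries. UMIs count 1 tag per molecule, so no division by transcript length was made, but capture and mapping can differ between genes. With 3 libraries against 3 the smallest p of an exact two-sided permutation test is 0.1, and over the 28 shares tested the smallest adjusted p was 0.187, so none could pass. In the coatomer γ pair, Copg1 held 43.1% ± 3.70 of the UMIs in shControl and 54.7% ± 2.74 in shLmna (SD, n = 3 each), and no libraries overlapped. That was not particular to this pair. Shares of Arfgap3, Ergic1, Ergic2 and the Gorasp and Lman pairs did not overlap either, nor did those of Arf3, Arf6 and the KDEL receptors below. KDEL receptor UMIs were 63.2% ± 2.54 Kdelr1 in shControl and 69.6% ± 1.19 in shLmna, with Kdelr2 at 29.3% and 25.5% and Kdelr3 at 7.51% and 4.98%. Arf3 held 11.2% ± 2.10 and 16.5% ± 1.999 of the UMIs of the 5 member ARFs, which leave out Arf2, and Arf6 0.264% ± 0.327 and 1.57% ± 0.643. Sar1a held 57.1% ± 6.55 of the Sar1 UMIs in shControl and 46.6% ± 5.79 in shLmna, and these groups overlapped. Within the Sec24 family, Sec24a held 3.41% ± 0.622 in shControl and 5.69% ± 1.25 in shLmna with no overlap, while for the more abundant Sec24c and Sec24d the libraries with melanoma transcripts stood apart, with the lowest shares of Sec24c and the highest of Sec24d.

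**Figure D4:**
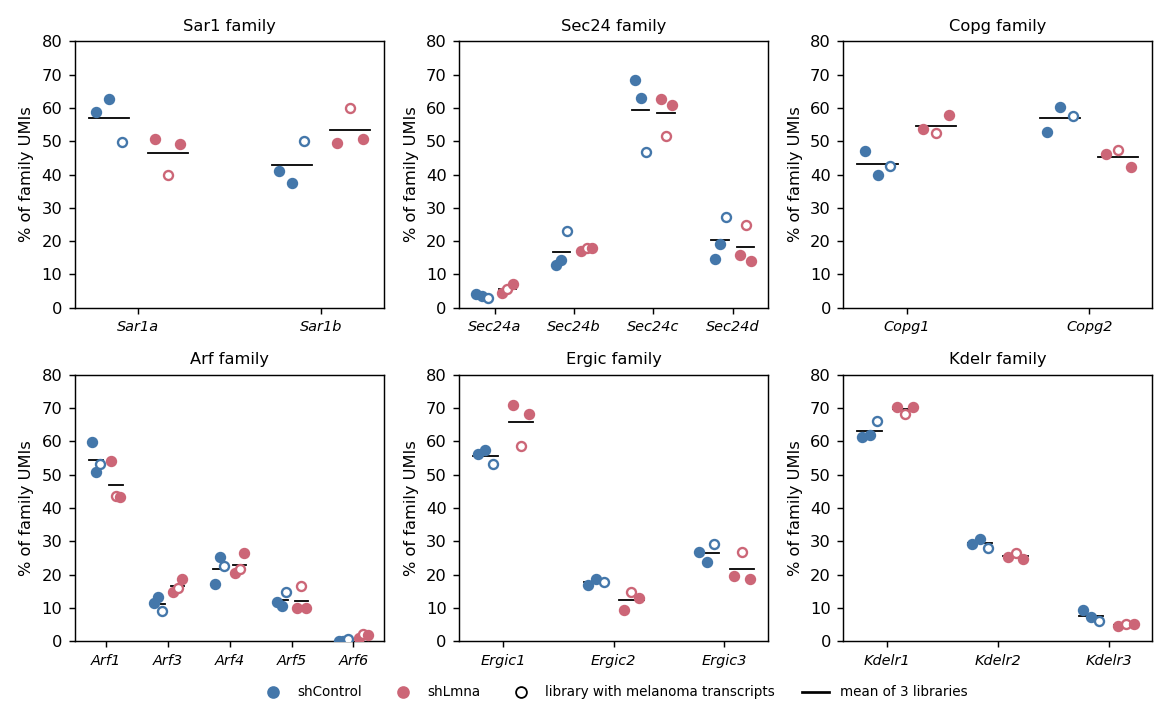
Share of each family's UMIs (vertical axis, percent) held by each paralog in each shControl and shLmna library (points, with the mean as a line) for 6 families (the ARFs without Arf2), with the libraries holding melanoma transcripts drawn open. Copg1 and Kdelr1 lie higher in all shLmna libraries than in all shControl libraries, while the Sec24c and Sec24d points separate the open from the filled symbols.

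The GC content of the counted 3′ ends was similar in members and in all genes. Their last 1000 bases had a median GC content of 46.7% in the members and 47.1% in all tested genes. Across the 53 members Pearson's r of log2 fold change and GC content was -0.15 and Spearman's rho -0.021, against -0.19 and -0.13 across 8934 genes. Points of this kind share the same 6 libraries. Sacm1l, at 36.7%, had the lowest GC content of the passing members. After a correction for GC content in edgeR all 5 members passed, with Sacm1l at an adjusted p of 1.8e-05 and Sar1a at 0.0499, and Ergic1 (higher) and Sec23a (lower) passed with them, in all 13.2% of the tested members against 15.7% of all genes in that fit.

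The wider ER-Golgi machinery was examined with 62 further genes, the remaining COPII and ARF factors, the TRAPP and COG tethering complexes, retrograde SNAREs and further golgins. Of these 56 were in the table and tested, 3 rose and 4 fell in edgeR's test, or 12.5% (against 13.7% of all tested genes), and their median log2 fold change was -6.9e-05. By the study's criteria 3 were differentially expressed and higher and 1 was lower. Golim4, a Golgi membrane protein that cycles to endosomes (reverse strand of chromosome 3, 75875084 to 75956949), had 8, 17 and 11 UMIs in shControl and 37, 58 and 41 in shLmna, a log2 fold change of 1.99 (standard error 0.31, adjusted p = 0.00081, edgeR). Golph3, which binds PI4P and helps retain Golgi enzymes (forward strand of chromosome 15, 12321450 to 12351591), had 40, 68 and 47 UMIs in shControl and 95, 126 and 99 in shLmna, 2.18-fold higher (log2 fold change 1.12, standard error 0.22, adjusted p = 0.0042, edgeR). Trappc8, a subunit of the TRAPPIII tethering complex, had 9, 21 and 15 UMIs in shControl and 34, 43 and 23 in shLmna (log2 fold change 1.20, standard error 0.32, adjusted p = 0.021, edgeR), a call lost on leaving out any 1 library other than shControl replicate 3 (adjusted p 0.053 to 0.090). Arfrp1, an ARF-related GTPase of the trans-Golgi (reverse strand of chromosome 2, 181357690 to 181365404), had 187, 276 and 150 UMIs in shControl and 87, 108 and 75 in shLmna, 2.14-fold lower (log2 fold change -1.10, standard error 0.17, adjusted p = 0.00055, edgeR). For these 4 genes the groups did not overlap, and each passed without both libraries with melanoma transcripts.

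The remaining 3 of the 7 that passed were named after their values were seen. Scfd1 (Sly1), which binds syntaxin 5 and promotes SNARE assembly, fell by 0.79 on the log2 scale. Arf2 fell by 0.73 and Yif1b, which cycles between ER and Golgi, by 0.67 (adjusted p of all 3 between 0.0097 and 0.015, edgeR). The counted end of Yif1b overlaps an exon of 2200002D01Rik on the opposite strand over 361 bases. The 8 COG genes had no passing member, and among the 13 TRAPP genes Trappc8 was the only one to pass (7.69%). Of all tested genes 13.7% passed.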

How the data were processed

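The authors trimmed MARS-seq reads with cutadapt, mapped them to mm10 with STAR 2.4.2a and counted UMIs with HTSeq over the last 1000 bases of RefSeq genes plus 100 bases downstream. Their deposited counts are raw and whole, for 10520 genes in 6 libraries. A deposited table of ComBat-corrected values and 1 of the authors' own DESeq2 comparison (means, fold changes, p-values) were not used.

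Tests across genes used edgeR 4.0.16 under R 4.3.3 (filterByExpr with a minimum count of 10, TMM factors, quasi-likelihood test, Benjamini-Hochberg adjustment over 8969 genes). Normalized counts are scaled to the mean library. Intervals are the fold change ± the 95% t quantile times its standard error. Floors of 3 UMIs cover counting error only. Alternatives were DESeq2 1.42.0 (the study's test), limma 3.58.1 (voom), other scaling factors and other count filters. Further alternatives were thinning, a replicate block, a GC correction and leaving out each library. Fits without the libraries holding melanoma transcripts (2 libraries a group remain) or with a yes-or-no term marking them were chosen after seeing the data. Scripts were tested on simulated data. Coordinates, GC content and overlaps came from GENCODE M21 (GRCm38), with a transcript matched to 10469 genes, which can differ from the RefSeq transcript counted. Copies elsewhere in the genome were not searched. Figures used Python 3.11.15.

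The members, gene lists and promoter motifs were chosen with earlier results of these data known. Genes described with every library's value are those that passed, their paralogs, and further ER-Golgi genes called by the study's criteria (at most 8). Members near the threshold or called in an alternative, and Preb, were added after their values were seen.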

Additional observations from a re-analysis of the deposited data

How the results depend on the processing

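In all, 2 members passed without shControl replicate 2 (3.77%, against 5.89% of all genes in that fit) or without shLmna replicate 3 (3.7%, against 7.1%). Without shControl replicate 3, 9 passed (16.7%, against 17.2%). Of the 5 members that passed, results under alternatives kept call and direction in 68 of 88 cases, none reversed, and Sacm1l kept its call wherever it was tested, at adjusted p-values up to 0.0020 (edgeR, DESeq2 or voom). Members that did not pass stayed so in 844 of 861. For members higher in shLmna the count of 3 was 1 with a mean count of at least 50, which removes Sacm1l and Arf6 by construction, and 2 to 4 with each library left out. For members lower in shLmna the count of 2 was 1 with limma-voom and with a mean count of at least 50. It was also 1 with counts thinned to the smallest library and with the GC correction and replicate block together. The count was 4 in both fits that leave out or mark the libraries with melanoma transcripts (chosen after seeing the data). With each library left out it ran from 0 to 5, while the share of all genes that passed ran from 5.89% to 17.2%. Members called by the study's criteria were 1 higher with DESeq2 (without Arf6), 0 higher with a mean count of at least 50 and 1 to 2 higher with each library left out, and 1 lower (Preb) with no filter on low counts and without both libraries with melanoma transcripts, from 0 to 1 with each library left out. Further ER-Golgi genes higher in shLmna were 1 with a mean count of at least 50, 6 without both libraries with melanoma transcripts, 5 with a term for them and 2 to 5 with each library left out, and the lower ones 1 to 5. The median log2 fold change of members, -0.011, changed sign with thinned counts (0.00774) and ran from -0.0526 to 0.000698 with each library left out. It was -0.0293 with limma-voom, -0.0343 with no filter, -0.0419 with a mean count of at least 50, -0.0337 with the GC correction and -0.0376 with the GC correction and replicate block. With the replicate block alone 6 members passed (11.3%, against 15.1% of all genes in that fit), 4 higher and 2 lower, with Ergic1 and Sec23b gained and Sar1a lost (adjusted p = 0.053, edgeR). The replicate numbers were not taken to pair the libraries. Deviations of same-numbered libraries correlated at 0.352, -0.115 and 0.00519, and not every library correlated best with its own number. Those of shControl replicate 3 and shLmna replicate 2, which hold melanoma transcripts, correlated at 0.35. The remaining differently numbered pairs ran from -0.365 to 0.0634. The log2 fold change of Lmna ran from -1.26 to -1.15 with each library left out. Standard errors were largest for Sacm1l, Arf6, Gosr2 and Sec24a, which have low counts, and the intervals of most members that did not pass reached a 1.5-fold change.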
